A study of Mus musculus with 2 samples.

Results

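The miRNAs described here are 7 mature miRNAs of mouse brain, namely 5 products of the miR-200 family (mmu-miR-200a-3p, mmu-miR-200b-3p, mmu-miR-200b-5p, mmu-miR-200c-3p and mmu-miR-429-3p), mmu-miR-182-5p and mmu-miR-203-3p. The study compared 1 Affymetrix miRNA 4.0 array of brain RNA from CPZ-fed mice with 1 array from control mice. CPZ (cuprizone) chelates copper and is toxic to oligodendrocytes, the myelin-forming cells, and it was given as 0.2% of the diet for 6 weeks. Controls ate normal chow, and all mice were male C57BL/6, bought at 7 weeks of age and rested for 1 week before feeding began. The labels call the tissue cerebellum, whereas the methods describe RNA of the cerebrum, and the number of mice behind each array is not stated beyond the 2 subjects of the design text.

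The array values were deposited under probe set numbers with no miRNA names. The members were chosen by the study's selection of miRNAs that differed by 1.5-fold or more between these same 2 arrays, so that their direction and the size of their difference are given here as a description and carry no test. Each was located as the probe sets whose log2 ratio (CPZ minus control) and volume (square root of the product of both log2 values) equalled the printed ones within 0.0002. The match held 1 distinct pair of values for each of the 7, with a deviation of at most 1.4e-06, and the closest pair outside the tolerance was 0.097 away, for mmu-miR-203-3p. The 7 pairs were carried by 59 of the 36249 probe sets, from 2 probe sets for mmu-miR-182-5p to 15 for mmu-miR-200a-3p, and identical probe sets were counted once, which left 6653 distinct pairs on the arrays. By the same match 69 miRNAs were located in all, 62 of them outside this set. These are counted by the study's listed names, which include some precursor hairpins and some names that share identical values. With 1 array per condition no value has an error, and every difference describes these 2 arrays.

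miRNAs bind messenger RNAs mainly through the seed, bases 2 to 8 of the mature strand, and lower their translation and stability. The miR-200 family is characteristic of epithelial cells, where it represses Zeb1 and Zeb2, transcription factors that switch off E-cadherin and drive the passage of epithelial cells to a mesenchymal state. miR-182 is made with miR-183 and miR-96 from a cluster known for its activity in sensory cells of the retina and inner ear. miR-203 is known from skin, where it limits the self-renewal of epidermal stem cells by repressing p63.

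The mature sequences show which of these miRNAs share a seed and which are close to each other in sequence. They were taken from RefSeq (GRCm38.p6), where all 7 names were matched, and are written from the 5′ end with the seed in capitals.
mmu-miR-200b-3p: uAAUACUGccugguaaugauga
mmu-miR-200c-3p: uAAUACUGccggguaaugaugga
mmu-miR-429-3p: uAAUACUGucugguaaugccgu
mmu-miR-200a-3p: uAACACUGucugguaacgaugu
mmu-miR-200b-5p: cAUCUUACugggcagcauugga
mmu-miR-182-5p: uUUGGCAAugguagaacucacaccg
mmu-miR-203-3p: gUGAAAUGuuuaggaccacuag

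Among the 1679 mature miRNA names of the sequence table, the seed AAUACUG belonged to 3, which were mmu-miR-200b-3p, mmu-miR-200c-3p and mmu-miR-429-3p. The seed of mmu-miR-200a-3p, AACACUG, was shared with mmu-miR-141-3p alone and differs from the first by 1 base (C4U from mmu-miR-200a-3p to mmu-miR-200b-3p, with positions counted from 1 at the 5′ end). The seed of mmu-miR-200b-5p was shared with mmu-miR-200a-5p, and those of mmu-miR-182-5p and mmu-miR-203-3p occurred in no other name. Over the whole strand, seed included, the closest pair was mmu-miR-200b-3p and mmu-miR-200c-3p, with the same base at 20 of 22 positions and the substitutions U11G and A22G from the first to the second. mmu-miR-200a-3p and mmu-miR-429-3p had the same base at 18 of 22 positions and a shared run of 12 bases. mmu-miR-182-5p matched the 4 family sequences of the 3′ arm at 5 or 6 positions and shared no run longer than 5 bases with them. Whether the probe sets of the family read separate RNAs was not tested.

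The 7 miRNAs come from 6 genes at 4 places. In GRCm38.p6 the hairpins Mir200b (chr4:156055681-156055750), Mir200a (chr4:156054896-156054985) and Mir429 (chr4:156053905-156053987) lie on the minus strand within 1846 bases. Mir200c (chr6:124718322-124718390, minus strand) lies beside Mir141, and the pair spans 477 bases. Mir182 (chr6:30165918-30165992, minus strand) lies with Mir96 and Mir183 within 3820 bases, 94548177 bases from the miR-200 pair on the same chromosome. Mir203 (chr12:112130880-112130955, plus strand) has 2 mature miRNAs annotated on the opposite strand, at the gene Gm51289. Of the 10 mature arms that the 5 miR-200 family genes have in the table, 5 were located on the arrays, and of the 6 arms of the miR-183 cluster 1 was. Values of the other arms were not analysed here because their probe sets could not be named. A probe set could be named only for a miRNA that the study listed as differing by 1.5-fold or more. The other arms, those of miR-141, miR-183 and miR-96 among them, were not listed by the study. Whether they differed between the arrays was not tested.

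The 5 miR-200 family miRNAs and mmu-miR-182-5p were lower on the CPZ array, by 31.4-fold to 77.6-fold with a median of 51.4-fold, and mmu-miR-203-3p was 1.90-fold higher. This gave 6 members past the 1.5-fold threshold on the lower side and 1 on the higher side. The share past that threshold was 9.71% lower and 9.07% higher over all probe sets, and 19.1% lower and 15.1% higher over distinct pairs. The members were selected on this threshold, so nothing is read from their count. The median log2 ratio was -5.68 for the 6 lower members and 0.00 over all distinct pairs.

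**Figure D1:**
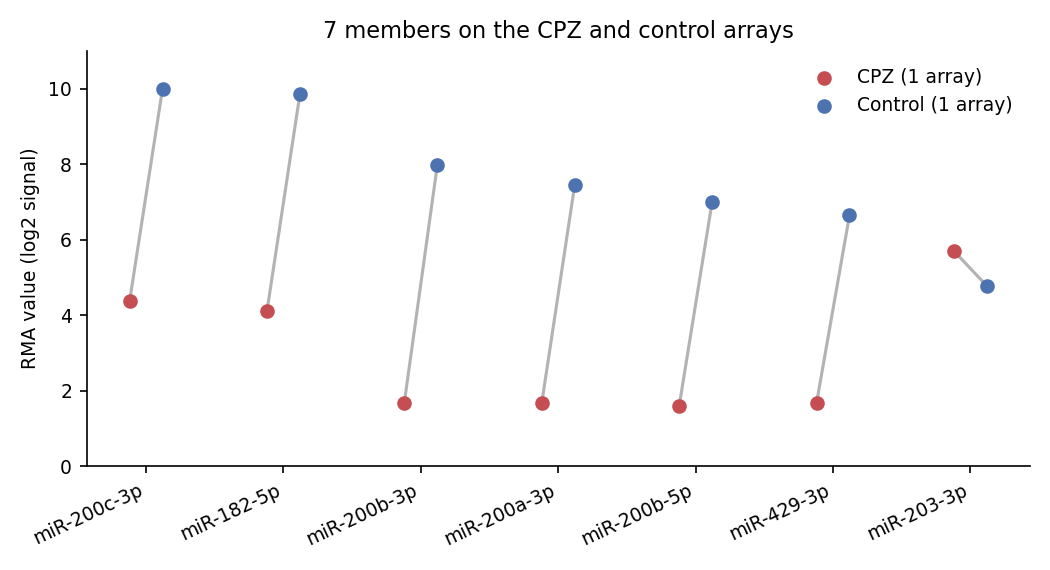
RMA values (log2 signal) of the 7 members, with the CPZ array in red to the left of the control array in blue and a grey line joining the 2 values of a miRNA. The 6 lower members lie at 1.59 to 4.37 on the CPZ array and at 6.65 to 9.99 on the control array, and mmu-miR-203-3p lies at 5.70 and 4.77.

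The miRNAs with the seed AAUACUG were all lower in CPZ. mmu-miR-200c-3p had an RMA value of 4.37 on the CPZ array and 9.99 on the control array, which are linear signals of 20.6 and 1015 and a 49.2-fold difference. mmu-miR-200b-3p was at 1.69 in CPZ and 7.97 in control, 77.6-fold lower, the largest difference of the 7 as deposited but not with a constant of 4 or more added to both linear signals (35.2-fold with 4, against 43.7-fold for mmu-miR-182-5p). mmu-miR-429-3p was at 1.67 in CPZ and 6.65 in control, 31.4-fold lower, the smallest of the 6. On the CPZ array mmu-miR-200c-3p lay at the percentile 88.5 of all probe sets and 78.4 of distinct pairs. mmu-miR-200b-3p lay at 79.7 of probe sets and 50.9 of distinct pairs, and mmu-miR-429-3p at 79.3 and 50.4. By distinct pairs both were thus at the middle of the array, which carries probe sets for many organisms. Their linear signals of 3.22 and 3.19 were low and the background is unknown, so a middle position is not read as expression. The signals of different probe sets depend on their probes as well as on the RNA, so these positions do not rank the miRNAs by abundance.

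mmu-miR-200a-3p, which carries the other family seed and comes from the same cluster as miR-200b and miR-429, was at 1.67 in CPZ and 7.44 in control, 54.4-fold lower. Its CPZ value and that of mmu-miR-429-3p were identical to the last digit, although the sequences differ. The same CPZ value was carried by 121 probe sets in 16 distinct pairs, whose control values ran from -0.14 to 7.44. The difference in log2 ratio between mmu-miR-200a-3p and mmu-miR-429-3p, -0.79, therefore comes wholly from the control array.

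Mir200b was the one hairpin with both arms among the located miRNAs, and it is shown because its strands were measured by separate probe sets. Its sequence (RefSeq, GRCm38.p6, minus strand) is written with the 5p arm and then the 3p arm in capitals.
Mir200b: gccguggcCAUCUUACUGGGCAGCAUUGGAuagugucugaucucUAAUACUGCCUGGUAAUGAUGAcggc

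The 5p and 3p strands of this hairpin had the same base at 4 of 22 positions. mmu-miR-200b-5p was at 1.59 in CPZ and 6.99 in control, 42.4-fold lower, beside the 77.6-fold of mmu-miR-200b-3p. The 3p arm stood 0.10 above the 5p arm on the CPZ array and 0.97 above it on the control array (log2). The log2 ratio of the 3p arm minus that of the 5p arm was -0.87, and its error is unknown.

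mmu-miR-182-5p, whose seed differs from those of the family, was at 4.10 in CPZ and 9.85 in control, which are linear signals of 17.2 and 923 and a 53.6-fold difference. Its values lay next to those of mmu-miR-200c-3p, from another cluster of the same chromosome, at 0.26 lower on the CPZ array and 0.14 lower on the control array. No member was closer to another than these 2, at a distance of 0.30 in the plane of the log2 values. Both had control signals at about the percentile 97.0 of probe sets (96.9 for mmu-miR-182-5p).

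mmu-miR-203-3p was the 1 member on the other side. It was at 5.70 in CPZ and 4.77 in control, which are linear signals of 52.0 and 27.4. Of 372 other distinct pairs with a control value within 0.5 of its own, 9 (2.42%) were higher in CPZ by as much. Of the same pairs, 32 were higher and 59 lower by 1.5-fold or more. mmu-miR-203-3p was selected for a difference of 1.5-fold or more on these arrays, so the 2.42% is a description, not a p-value. Its nearest neighbours among the 62 other located miRNAs were mmu-miR-665-3p, at 5.44 in CPZ and 4.77 in control (distance 0.26), and mmu-miR-7a-5p, at 5.77 and 4.36 (distance 0.42).

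**Figure D2:**
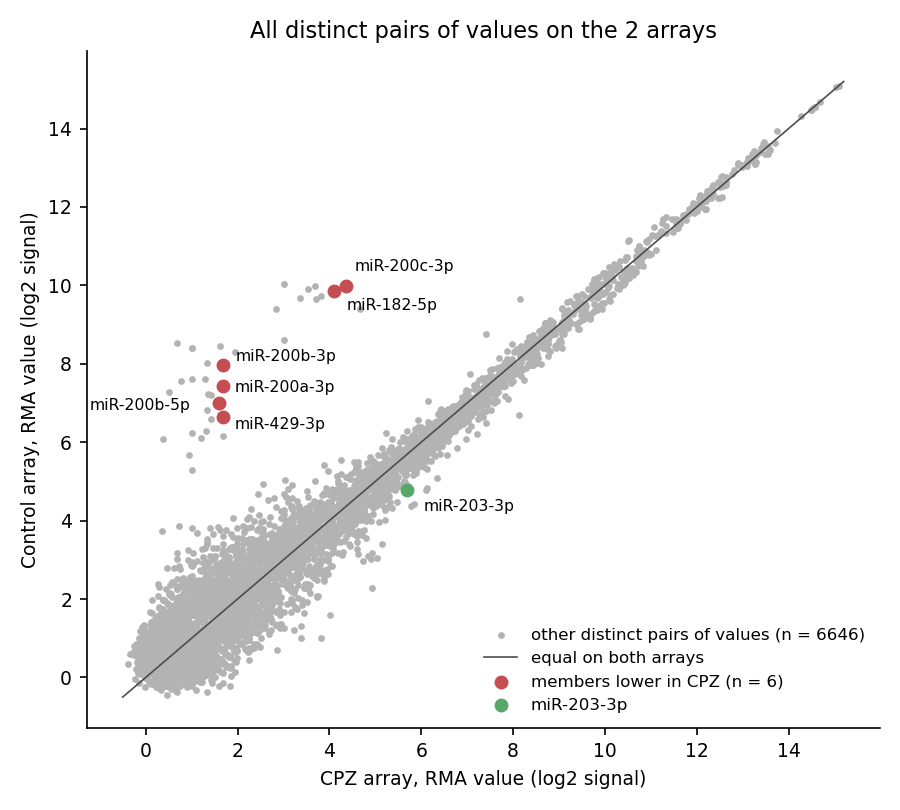
RMA values (log2 signal) of the 6653 distinct pairs, with the CPZ array on the x axis and the control array on the y axis. The 6 lower members (red) lie in a group of 36 pairs that is set off above the line of equal values, while mmu-miR-203-3p (green) lies at the lower edge of the main band.

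The 6 lower members belonged to a small set of pairs that stood apart from all others in the values as deposited. At 16-fold or more, 36 distinct pairs were lower in CPZ, or 0.541% of all, and none was higher. These 36 pairs comprised 143 probe sets, of which 52 were those of the 6 members. The smallest difference inside this set was 19.4-fold and the next one outside it was 10.4-fold, a gap of 0.90 on the log2 scale that held no pair. By size the members ranked 16 (mmu-miR-200b-3p), 21 (mmu-miR-200a-3p), 22 (mmu-miR-182-5p), 24 (mmu-miR-200c-3p), 27 (mmu-miR-200b-5p) and 30 (mmu-miR-429-3p). The ranks and the gap rest on low CPZ signals of unknown background. With 4 added to both linear signals mmu-miR-182-5p ranked 12 and mmu-miR-200c-3p 13, and the 36 pairs remained the 36 lowest, the smallest of them at -2.84 and the next pair at -1.79 (log2 ratio). With 16 added these values were -1.61 and -1.45, and with 64 added the set was no longer apart, with 34 of its pairs among the 36 lowest, the 6 members included. The other 30 pairs had no name here. These counts run over probe sets for many organisms, whereas the study kept only probes annotated to mouse. Whether any of the 30 read the same RNAs as the members was not determined. The largest difference in the opposite direction was 2.81 on the log2 scale.

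**Figure D3:**
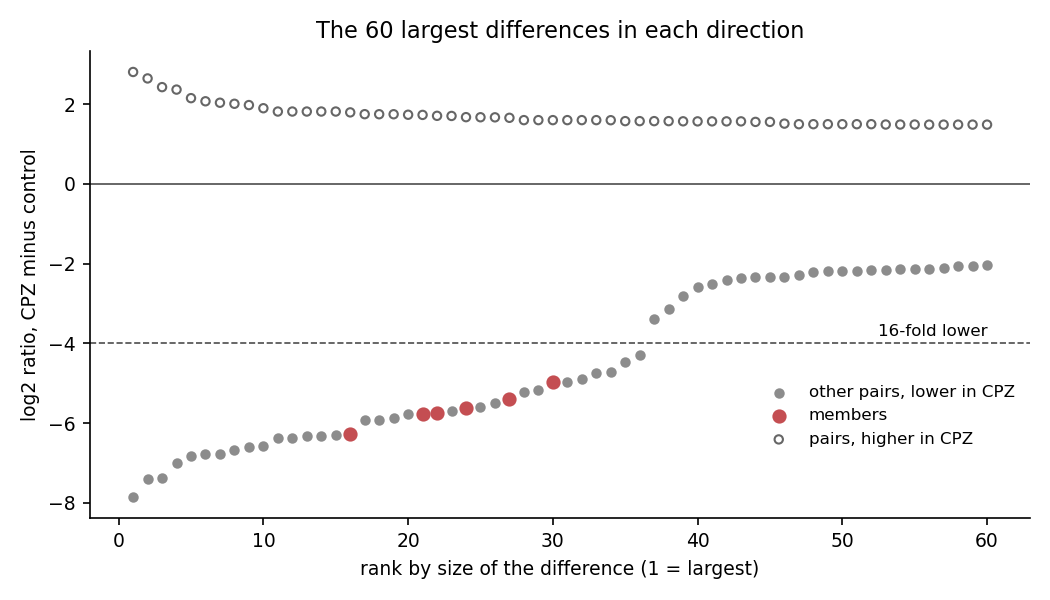
Log2 ratio (CPZ minus control) of the 60 distinct pairs that were lowest in CPZ (filled points, members in red) and the 60 that were highest (open points), by rank of size. A step separates the 36 pairs past 16-fold, the 6 members among them, from the rest, and the open points hold no such step.

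In the values as deposited, pairs were also counted at like control signals. The range was set by the members' own values on the array where they were high. It left out the pairs on both sides of the gap, which had control values of 5.29 and 3.74. These counts therefore do not show whether the split was sharper at like control signals. The counts in this range were not repeated with a constant added. Between the lowest and the highest control value of the 6 members there were 497 other distinct pairs, with a median log2 ratio of 0.03, and 462 of them (93.0%) differed by less than 1.5-fold. Of the 497, 20 (4.02%) were at least 16-fold lower, and 2 were lower by 2-fold or more without reaching 16-fold. With the arrays exchanged, 502 pairs had a CPZ value in this range, and the largest rise among them was 2.71-fold. A control value within 0.5 of its own was shared by 236 other pairs for mmu-miR-429-3p, of which 3 (1.27%) were lower by as much. The corresponding shares were 1.92% of 208 for mmu-miR-200b-5p, 3.28% of 183 for mmu-miR-200a-3p and 4.57% of 175 for mmu-miR-200b-3p. They were 5.83% of 103 for mmu-miR-200c-3p and 6.54% of 107 for mmu-miR-182-5p. The shares describe the 2 arrays and are not p-values. The array carries probe sets for many organisms, and whether any of the other pairs read the same RNAs as the members was not determined.

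The nearest of the 62 other located miRNAs are given as a description, by a distance over levels that depend on the probes and that follows in large part from the log2 ratios on which the members were selected. For mmu-miR-429-3p the closest was mmu-miR-32-3p, at 2.25 in CPZ and 4.09 in control, a distance of 2.62, whereas the nearest member, mmu-miR-200b-5p, was 0.36 away. For mmu-miR-200b-3p the closest was mmu-miR-193a-5p, at 4.25 in CPZ and 5.54 in control (distance 3.53). For mmu-miR-200c-3p and mmu-miR-182-5p it was mmu-miR-338-5p, from the miR-338 hairpin that is active in oligodendrocytes, at 7.07 in CPZ and 7.74 in control (distances 3.51 and 3.64). All these neighbours were lower in CPZ too, by 1.60-fold to 3.57-fold, and had been selected by the same threshold.

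Markers of other tissue in a brain dissection could be followed through few miRNAs. A miRNA could be located only where the study had listed it as differing by 1.5-fold or more, so each one given here differs by selection, and a list miRNA that was not located may still have been measured. Of the 69 located miRNAs, counted by listed name, 30 were lower in CPZ and 39 higher. Of the lists for choroid plexus and ependyma, pituitary and muscle, 1 miRNA each was located. mmu-miR-34c-5p, of ciliated and ependymal cells, was at 6.79 in CPZ and 5.85 in control. mmu-miR-7a-5p, abundant in the pituitary, was at 5.77 in CPZ and 4.36 in control. mmu-miR-206-3p, of skeletal muscle, was at 4.53 in CPZ and 5.49 in control, 1.95-fold lower. No neuronal miRNA of the list was located, and both located miRNAs of oligodendrocytes were lower, mmu-miR-219a-2-3p by 2.83-fold and mmu-miR-338-5p by 1.60-fold. The part that a differing dissection had in the values of the 7 members was not tested. In bulk RNA, fewer cells of a type and less RNA per cell cannot be told apart.

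The size of the differences depended on the low CPZ signals, whose background is unknown because detection calls were not used here. When 4 was added to both linear signals the 6 differences ranged from 14.5-fold to 43.7-fold, and with 16 added from 6.05-fold to 28.3-fold. They ranged from 2.44-fold to 12.8-fold with 64 added and from 1.32-fold to 4.10-fold with 300 added. With each of these constants, mmu-miR-182-5p and mmu-miR-200c-3p had the largest differences of the 6 in place of mmu-miR-200b-3p, and their control signals were the highest. With 300 added, mmu-miR-200b-5p (1.41-fold) and mmu-miR-429-3p (1.32-fold) no longer reached the 1.5-fold threshold. Their control signals were 127.0 and 100.1, so with this constant neither could reach 1.5-fold at any CPZ signal. mmu-miR-203-3p was 1.57-fold higher with 16 added and 1.27-fold higher with 64.

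**Figure D4:**
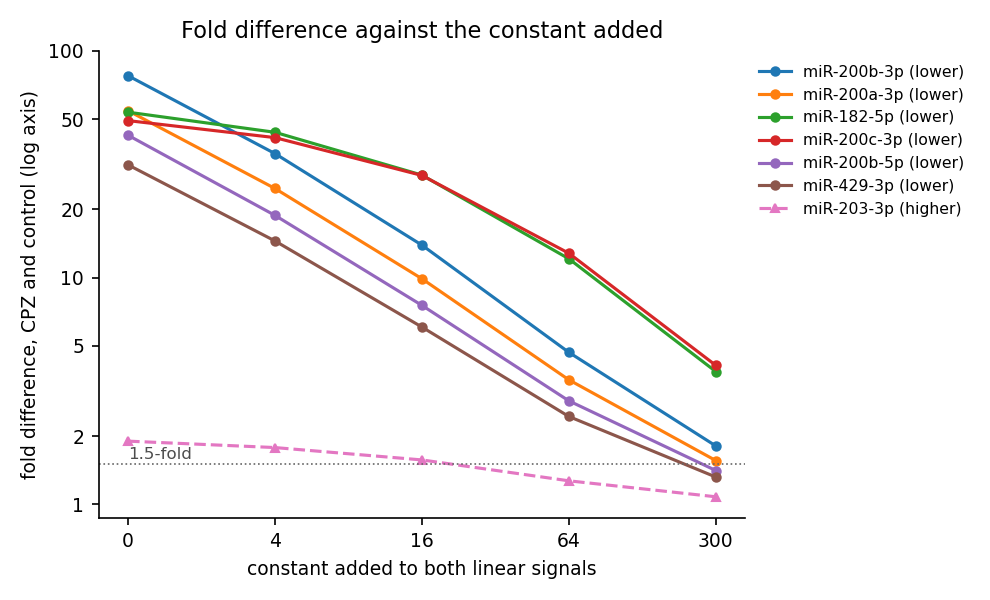
Fold difference between the CPZ and control arrays (log axis) for each member when 0, 4, 16, 64 or 300 was added to both linear signals, with the dotted line at 1.5-fold. mmu-miR-182-5p and mmu-miR-200c-3p are highest with 16 added, at 28.3-fold and 28.2-fold, and mmu-miR-203-3p, the 1 member higher in CPZ, lies under 1.5-fold at 64.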

How the data were processed

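Total RNA (1 µg) was labelled with biotin and hybridized by the authors to 1 Affymetrix miRNA 4.0 array for CPZ and 1 for control. RMA, which corrects background and normalizes between arrays, was run by the authors in Affymetrix Power Tools (version not given in the sources used here), and its log2 signals were deposited, 1 per probe set and array. Linear signals are 2 to the power of these values. No detection calls, probe names or columns of other samples were used (0 such columns). Precision is limited by having 1 array per condition.

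Samples were grouped by their treatment labels. The members, lists and thresholds were chosen with earlier results of these data known. Printed fold changes and volumes served only to name probe sets. Named miRNAs are the 7 members, the nearest located miRNAs by Euclidean distance over both log2 values, and the located miRNAs of 8 lists, namely other epithelial miRNAs, the miR-183 cluster, the miR-200 family, choroid plexus and ependyma, pituitary, muscle, neurons and oligodendrocytes. Of the other neighbours under that rule, mmu-miR-669k-5p (3.54 in CPZ, 4.59 in control) and mmu-miR-700-5p (5.68 in CPZ, 6.28 in control) are given only here. Alternatives were constants added to the linear signals (4 and 300 were chosen after seeing the data), median centring, a lowess fit (span 0.3), a wider match tolerance (0.001) and other fold thresholds. No test was possible with 1 array per condition. Functions were tested on simulated data. Python 3.11.15, numpy 2.4.6, pandas 2.3.3, statsmodels 0.14.6 and matplotlib 3.10.9 were used.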

Additional observations from a re-analysis of the deposited data

How the results depend on the processing

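A match tolerance of 0.001, subtraction of a lowess curve and median centring (over pairs averaging 5 or more) left each of the 7 log2 ratios within 0.07 of its value. With 4, 16, 64 and 300 added to both linear signals (4 and 300 chosen after seeing the data), the log2 ratios were -4.63, -3.30, -1.82 and -0.64 for mmu-miR-200a-3p, -5.14, -3.79, -2.23 and -0.86 for mmu-miR-200b-3p, -4.23, -2.92, -1.51 and -0.50 for mmu-miR-200b-5p, and -5.37, -4.82, -3.67 and -2.04 for mmu-miR-200c-3p. They were -3.86, -2.60, -1.29 and -0.40 for mmu-miR-429-3p, -5.45, -4.82, -3.60 and -1.95 for mmu-miR-182-5p, and 0.84, 0.65, 0.34 and 0.10 for mmu-miR-203-3p. An added constant brings every ratio nearer to 0 by construction. Members lower in CPZ by 1.5-fold or more numbered 4 with 300 added, and 6 with 4, 16 or 64 added, at a threshold of 2-fold, and under the lowess fit, the centring and the wider tolerance. Members higher in CPZ numbered 0 at a threshold of 2-fold and with 64 or 300 added, and 1 with 4 or 16 added and under the lowess fit, the centring and the wider tolerance. The 26 distinct pairs at least 16-fold lower with a control value in the range of the members were 125 when all probe sets were counted, 26 at 8-fold and 24 at 32-fold, and none was higher by 4-fold, 8-fold or 16-fold in the mirrored range. The unknown background on the CPZ array limits the size of each difference, and 1 array per condition leaves its error unknown.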

Other observations

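The 30 unnamed pairs that were at least 16-fold lower in CPZ comprised 91 probe sets, with values of 0.39 to 4.66 on the CPZ array and 5.29 to 10.03 on the control array. In the values as deposited their median difference was 69.4-fold, and 15 of them differed by more than mmu-miR-200b-3p. The largest difference as deposited, 229.9-fold, belonged to a single probe set at 0.68 in CPZ and 8.53 in control. These sizes and their order rest on low CPZ signals of unknown background. The array carries probe sets for many organisms, and which miRNAs or organisms these 30 pairs stand for was not determined here.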
